A study of Mus musculus with 6 samples.

Results

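This report follows 7 genes of the chemokine receptor family, *Cx3cr1*, *Ccr1*, *Ccr2*, *Ccrl2*, *Cxcr2*, *Cxcr4* and *Ccr6*, in single-cell RNA-seq of myeloid cells sorted from the adult mouse brain. The genes were taken by symbol from the 32285 genes of the count matrices, and all 7 were found. The animals were 3 male C57BL/6J mice at postnatal day 89, with no transgene named in the labels, and each whole brain was dissociated by cold Dounce homogenization, a mechanical method without enzymes. Mouse 2 received a cocktail of actinomycin D, triptolide and anisomycin, which block transcription and translation, during the isolation (DNC-INHIB). Mice 1 and 3 were processed without it (DNC-NONE). Live CD45+/CD11b+ cells were sorted, and the surface protein CX3CR1, although stained, was not a sorting parameter. Every mouse was captured once by 10X V3.0 chemistry and once by V3.1, which gave 6 libraries. DNC-INHIB is therefore a single mouse, and the 2 libraries of a mouse come from the same animal and are not separate replicates.

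Chemokine receptors are membrane-spanning proteins that couple mainly to inhibitory G proteins and guide the migration of leukocytes along gradients of their ligands. In the brain, *Cx3cr1* is a hallmark of microglia, the resident macrophages, and its ligand fractalkine is made by neurons. *Ccr2* brings monocytes out of the bone marrow and into tissue, and *Cxcr2* and *Cxcr4* act in opposite directions on the release of neutrophils from the marrow. *Ccrl2* is an atypical receptor that binds the chemoattractant chemerin without classical signalling, and *Ccr6* is the receptor of *Ccl20*.

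In the mm10 annotation, 4 of the genes lie on chromosome 9. *Cx3cr1* spans 119901616 to 120069879 on the minus strand and overlaps 9 other genes, of which 3 are on the same strand and 0 share exon sequence with it there. *Ccrl2* lies at 111054486 to 111057519, *Ccr1* at 123962124 to 123968692 and *Ccr2* at 124101950 to 124113557. Genes of this family have close paralogs, and reads that match more than 1 of them cannot be assigned to either in such counts. *Cxcr2* (74153989 to 74161246) and *Cxcr4* (128588199 to 128592293) lie on chromosome 1, and *Ccr6* (8236043 to 8257141) on chromosome 17. The 250 bases before the transcription start in RefSeq are printed below for 3 of the genes, those with their highest level in microglia, monocytes and neutrophils, respectively. They were taken from RefSeq (GRCm38.p6) and run 5′ to 3′ on the strand of the gene, which is the minus strand for *Cx3cr1* at chr9:120068297-120068546 and the plus strand for *Ccr2* at chr9:124101933-124102182 and for *Cxcr2* at chr1:74153744-74153993.
Cx3cr1: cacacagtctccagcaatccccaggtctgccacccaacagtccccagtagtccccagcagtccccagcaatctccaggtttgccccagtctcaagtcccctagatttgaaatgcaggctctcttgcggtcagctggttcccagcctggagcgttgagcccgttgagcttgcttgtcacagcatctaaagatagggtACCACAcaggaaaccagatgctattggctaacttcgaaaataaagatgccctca
Ccr2: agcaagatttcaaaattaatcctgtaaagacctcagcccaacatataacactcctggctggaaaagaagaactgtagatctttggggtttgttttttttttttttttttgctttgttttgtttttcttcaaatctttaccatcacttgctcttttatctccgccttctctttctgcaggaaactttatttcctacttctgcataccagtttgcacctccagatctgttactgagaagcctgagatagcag
Cxcr2: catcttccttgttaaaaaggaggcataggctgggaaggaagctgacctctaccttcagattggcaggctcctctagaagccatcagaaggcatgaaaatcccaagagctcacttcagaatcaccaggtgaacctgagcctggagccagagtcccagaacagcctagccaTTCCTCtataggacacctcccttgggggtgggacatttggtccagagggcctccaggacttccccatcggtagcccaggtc
The RefSeq starts differ from the spans above, and the whole *Cx3cr1* window and most of the *Ccr2* window lie inside those spans. Capitals mark matches, on either strand, to the 3 motifs searched. The core of ETS factors of the PU.1 type was searched as GAGGAA, and 23.3% of 32851 promoter windows of this length hold it. The core of RUNX factors, searched by its letters ACCACA, is in 14% of these windows, and the box bound by the TATA-binding protein, with the letters TATAAA, is in 12.4%. The *Cx3cr1* sequence holds the RUNX core at position −54 from the start. In the *Cxcr2* sequence the ETS core lies on the opposite strand at −81, so that the capitals there show its reverse complement. The *Ccr2* sequence holds none of the 3.

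Of the barcodes, 19725 passed the limits on genes, UMIs and mitochondrial share. Library totals ran from 6275898 to 18872816 UMIs. Mouse 3 with V3.0 had the lowest total, and only 21.5% of its barcodes passed, against 70.0% to 76.8% elsewhere. Any 2 libraries shared 1 to 5 barcodes among their passing cells, at most 0.316% of the smaller library. Cells were assigned by marker UMIs that included none of the 7 receptors, which gave 18888 microglia, 36 border macrophages, 177 monocytes and 297 neutrophils. Another 34 cells carried lymphocyte markers, 181 held markers of more than 1 class and were set aside as possible doublets, and 112 fell in no class. The labels were checked against the marker lists. All 10 microglial markers were each present in most microglia and all 10 neutrophil markers in most neutrophils, against 5 of 7 for monocytes. In border macrophages only *Mrc1*, *Pf4* and *Ms4a7*, 3 of 8 markers, were present in more cells than not, and *Lyve1* was in 11.1% of them. Neutrophils also carried the monocyte marker *Ly6c2* (80.8% of cells before thinning). Median depth was 3514.5 UMIs per cell in microglia, 4090 in border macrophages, 4980 in monocytes and 5461 in neutrophils. Shares of cells with a UMI are therefore given after each cell was drawn down to 2000 UMIs, unless stated otherwise. Free RNA was gauged by genes of other brain cells in microglia, where *Snap25* of neurons was seen in 0.149% of cells, *Slc1a2* of astrocytes in 0.0331% and *Cldn5* of endothelial cells in 0 of 18148 cells, which allows up to 0.0165%. RNA of neutrophils was more widespread, with *S100a8* in 69.3% of microglia before thinning. Intervals and limits cover counting error only.

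The question of the class comparison is where each receptor was expressed among the 4 classes. UMIs were summed per mouse and class into 12 sums and compared by edgeR. Genes counted as called at adjusted p under 0.05 with a log2 fold change of more than 0.58 in size. *Cx3cr1*, *Ccr1*, *Ccr2*, *Cxcr2* and *Cxcr4* passed the filter on low counts. *Ccrl2* and *Ccr6* did not, and without the filter neither was called in any of the 6 comparisons. Of the 5 genes tested, 3 were called higher and 1 lower in border macrophages than in microglia, where 5.68% of the 7832 genes tested were called higher and 6.38% lower (12.1% in all). Monocytes against microglia had 3 higher and 1 lower, beside 25.6% and 30.3% of all genes (55.9% in all). Neutrophils against microglia had 4 higher and 1 lower, beside 28% and 38.5% (66.5% in all). Monocytes against border macrophages had 2 higher and 2 lower (10% and 6.21%, 16.2% in all). Neutrophils had 3 higher and 2 lower against monocytes (22% in each direction, 43.9% in all) and 3 higher and 1 lower against border macrophages (19.3% and 13.5%, 32.8% in all). A gene could pass the filter through the class in which it was high, so these counts are a description and the values of each gene follow. *S100a8* and *S100a9* together took 37.5% of neutrophil UMIs, and the scaling therefore matters for this class. The median log2 fold change of all genes was −0.32 for neutrophils against microglia with TMM scaling and −1.64 with library size alone, and the share of calls that were higher moved from 42.1% to 14.4%. The same share moved from 50% to 12.9% for neutrophils against monocytes, from 58.9% to 19.1% for neutrophils against border macrophages and from 45.7% to 32.6% for monocytes against microglia. With DESeq2 it moved from 47.1% to 69.2% for border macrophages against microglia and from 61.7% to 46.5% for monocytes against border macrophages. Levels below are in CPM, the UMIs of a gene scaled to a common total over the UMIs of the class in a mouse, and mean ± SD is over the 3 mice, of which mouse 2 is DNC-INHIB.

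**Figure D1:**
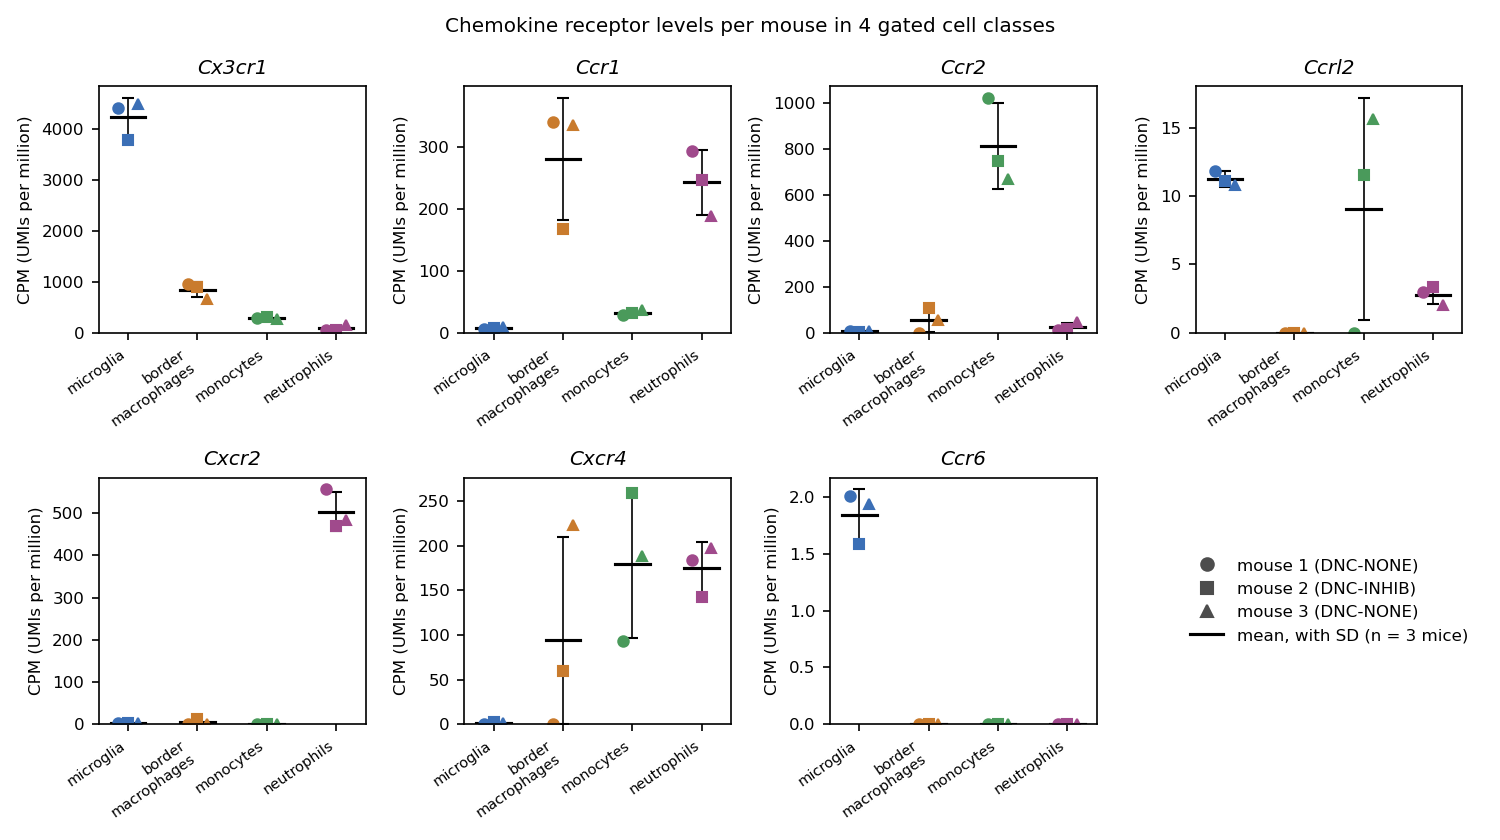
Level of each receptor (CPM, vertical axis, a separate linear scale per gene) in microglia, border macrophages, monocytes and neutrophils, 1 point per mouse, with the mean and the SD (n = 3 mice; bars that would pass below 0 are cut there). *Cx3cr1* was highest in microglia, *Ccr2* in monocytes and *Cxcr2* in neutrophils, and the *Ccr6* UMIs of these classes all lay in microglia.

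*Cx3cr1* was highest in microglia and stepped down through border macrophages and monocytes to neutrophils. Microglia held 4410, 3788 and 4497 CPM in mice 1, 2 and 3 (4232 ± 386, SD, n = 3). Border macrophages held 960, 904 and 670 CPM (845 ± 154) and monocytes 286, 314 and 266 CPM (289 ± 24.0). Neutrophils held 57.9, 46.8 and 142 CPM (82.3 ± 52.1). The ranges of the classes did not overlap. The log2 fold change against microglia was −2.20 in border macrophages (SE 0.27, adjusted p = 4.46e-08), −3.60 in monocytes (0.26, 7.6e-16) and −4.44 in neutrophils (0.28, 4.59e-18). SE here is the size of the log2 fold change divided by the square root of its F statistic. It approximates a standard error and was not taken from the fitted coefficients. Monocytes against border macrophages were at −1.39 (SE 0.31, adjusted p = 0.000791), a call lost with the gate as first written (−0.82, adjusted p = 0.162). The last step, neutrophils against monocytes, was −0.84 (SE 0.30, adjusted p = 0.0186) and did not hold. It was lost with DESeq2 (adjusted p = 0.0697), without mouse 1 (−0.66, adjusted p = 0.175) or mouse 2 (−0.49, adjusted p = 0.274) and with 2 markers as the minimum (−0.24, adjusted p = 0.523), and turned to 0.62 with barcodes from 500 genes and no upper limit and to 0.27 with the gate as first written. Neutrophils against border macrophages were at −2.23 (adjusted p = 5.08e-07), and at −0.55 (adjusted p = 0.322) with the gate as first written.

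Nearly every microglial cell carried *Cx3cr1*. At 2000 UMIs per cell it was present in 99.8% of microglia (95% exact interval 99.7 to 99.8), 66.7% of border macrophages (49.0 to 81.4), 40.2% of monocytes (32.9 to 47.9) and 10.2% of neutrophils (6.97 to 14.2). Before thinning the neutrophil share was 17.8%, while the microglial gene *P2ry12* was in 13.8% of neutrophils. The number of *Cx3cr1* UMIs per thinned microglial cell had a median of 8, with 3 at the 5th and 15 at the 95th percentile and 30 at most. The median by library lay between 7 and 10. Border macrophages had a median of 1. Against *P2ry12* as a reference for microglial RNA, *Cx3cr1* stood at 1282 UMIs per 1000 *P2ry12* UMIs in microglia, 2379 (1999 to 2811) in neutrophils, 5667 in border macrophages and 18353 in monocytes. In neutrophils 85 of the 138 *Cx3cr1* UMIs lay in 11 cells with at least 5 each, so the pooled ratio leaned on few cells. The source of the neutrophil *Cx3cr1* UMIs was not tested.

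Among the 4 classes *Ccr2* marked monocytes. They held 1024, 747 and 668 CPM in mice 1, 2 and 3 (813 ± 187), and the highest sum of another of these classes was 107 CPM. Outside the 4 classes, the cells that fell in no class held 820, 381 and 390 CPM. Border macrophages held 0, 107 and 55.8 CPM, from 10 UMIs in 4 cells. Neutrophils held 13.4, 15 and 46.0 CPM and microglia 4.82, 4.42 and 5.35 CPM. On the log2 scale monocytes exceeded microglia by 7.64 (SE 0.17, adjusted p = 4.15e-33) and border macrophages by 3.8 (adjusted p = 1.85e-09), and neutrophils against monocytes were at −4.09 (adjusted p = 1.46e-17). The difference of border macrophages from microglia, 3.85 (adjusted p = 0.00164), rested on mouse 2, without which it was 1.48 (adjusted p = 0.754). *Ccr2* was present in 36.2% of monocytes (29.1 to 43.8), 8.33% of border macrophages, 2.03% of neutrophils and 0.804% of microglia (0.680 to 0.945). In microglia 234 of the 269 positive cells held a single UMI before thinning, and the share was above that of *Snap25*. In neutrophils all 41 UMIs lay in 6 cells, and the higher level than in microglia, 3.56 (adjusted p = 2.59e-09), rested on them.

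The monocytes fell into subsets that carried *Ccr2* and *Cx3cr1* differently. *Ly6c2* UMIs exceeded those of *Ace* and *Treml4* in 55 monocytes (classical monocytes carry Ly6C), the reverse held in 113, and 9 were tied. The subsets were described without a test. In the *Ly6c2* monocytes *Ccr2* stood at 1694, 1894 and 939 CPM in mice 1, 2 and 3 and was in 51 of 55 cells. In the *Ace* and *Treml4* monocytes it stood at 129, 119 and 139 CPM and was in 14 of 113 cells. The subsets did not overlap for *Ccr2*. *Cx3cr1* ran the other way, with 180, 262 and 174 CPM in *Ly6c2* monocytes and 418, 338 and 447 CPM in *Ace* and *Treml4* monocytes, again without overlap, although the shares of positive cells were alike (37 of 55 and 78 of 113). *Cxcr4* was also higher in the *Ace* and *Treml4* monocytes in each mouse, at 172, 331 and 401 CPM against 28.8, 136 and 78.9 CPM. *Ccr1* was found in 16 of 55 *Ly6c2* monocytes and in 0 of 113 *Ace* and *Treml4* monocytes, where 0 UMIs allow up to 5.59 CPM. The *Ly6c2* monocytes were deeper (median 8585 UMIs against 4317), and the shares of cells here were not thinned. In 49 of the 177 monocytes both *Ccr2* and *Cx3cr1* were seen, 68.1% of the *Ccr2*-positive and 40.2% of the *Cx3cr1*-positive cells.

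**Figure D2:**
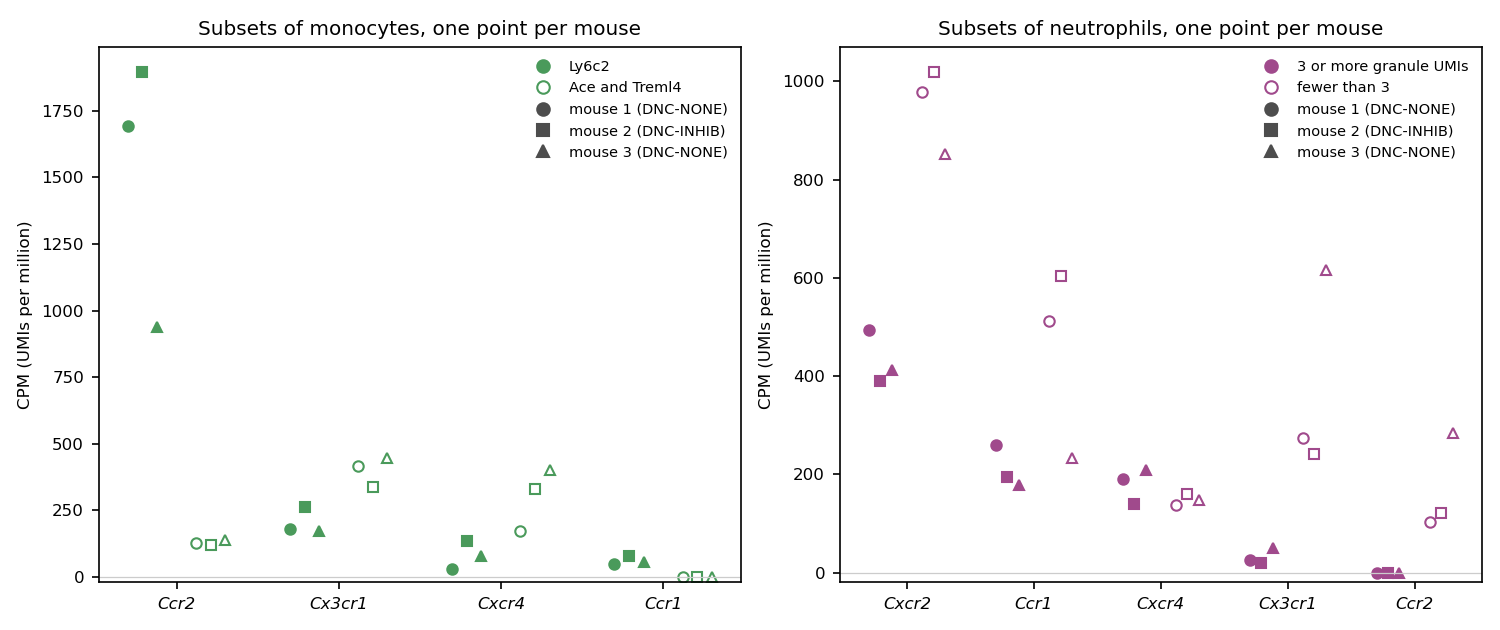
Receptor levels per mouse (CPM, vertical axis) in monocytes with more *Ly6c2* or more *Ace* and *Treml4* UMIs (left) and in neutrophils with at least 3 or fewer than 3 UMIs of the granule genes *Ngp*, *Camp* and *Ltf* (right). In every mouse *Ccr2* was higher and *Cx3cr1* and *Cxcr4* were lower in the *Ly6c2* monocytes, and *Ccr2* was at 0 in the neutrophils with granule UMIs.

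*Ccr1*, a receptor of *Ccl3*, *Ccl5* and other inflammatory chemokines, was high in neutrophils and border macrophages. Neutrophils held 293, 246 and 188 CPM (242 ± 52.4) and border macrophages 340, 167 and 335 CPM (281 ± 98.7), ranges that overlapped. Monocytes held 28.2, 31.4 and 36.5 CPM (32.1 ± 4.19) and microglia 6.39, 7.53 and 9.22 CPM (7.71 ± 1.43). Against microglia the log2 fold change was 6.30 in neutrophils (SE 0.16, adjusted p = 6e-32), 5.08 in border macrophages (0.45, 5.98e-12) and 2.30 in monocytes (0.39, 2.68e-06). Neutrophils were also above monocytes by 4.0 (adjusted p = 2.03e-17), and monocytes were below border macrophages (−2.78, adjusted p = 6.71e-06). The order of neutrophils and border macrophages depended on the scaling, at 1.21 (adjusted p = 0.000696) with TMM and −0.02 (adjusted p = 0.972) with library size alone, and the call was also lost with the gate as first written (0.72, adjusted p = 0.124). *Ccr1* was present in 39.3% of neutrophils (33.7 to 45.2), 30.6% of border macrophages (16.3 to 48.1), 4.60% of monocytes and 1.02% of microglia (0.878 to 1.18). Per 1000 *S100a8* UMIs there were 20.7 *Ccr1* UMIs in microglia (18.9 to 22.5) and 1.38 in neutrophils (1.26 to 1.52). The source of the microglial *Ccr1* UMIs was not tested.

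*Cxcr2*, the receptor through which *Cxcl1* and *Cxcl2* draw neutrophils, was a gene of neutrophils here. They held 557, 470 and 484 CPM in mice 1, 2 and 3 (504 ± 46.8), from 898 UMIs in 229 of 297 cells. Microglia held 2.23, 1.66 and 2.60 CPM, border macrophages 1 UMI and monocytes 0. Against microglia the log2 fold change was 9.18 (SE 0.16, adjusted p = 2.89e-36). Against monocytes, where 0 UMIs over the class were set at a floor of 3, neutrophils were at least 177-fold higher, and against the single UMI of border macrophages the ratio of CPM was 77.0 (95% counting interval 13.8 to 3046). *Cxcr2* was present in 55.9% of neutrophils (50.1 to 61.7) and in 0.413% of microglia (0.325 to 0.518). Per 1000 *S100a8* UMIs there were 5.73 *Cxcr2* UMIs in microglia (4.84 to 6.75) and 2.83 in neutrophils (2.65 to 3.03), and the source of the microglial UMIs was not tested.

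*Cxcr4*, the receptor of *Cxcl12*, was shared by neutrophils and monocytes. Monocytes held 92.7, 259 and 188 CPM (180 ± 83.6) and neutrophils 184, 142 and 198 CPM (175 ± 29.2), and the ranges overlapped. Border macrophages held 0, 59.5 and 223 CPM, from 9 UMIs in 3 cells, and microglia 0.581, 1.89 and 0.713 CPM. The log2 fold change against microglia was 8.55 in neutrophils (SE 0.27, adjusted p = 1.68e-28), 7.71 in monocytes (0.31, 1.09e-24) and 5.80 in border macrophages (1.18, 0.000321). The last of these was lost with the gate as first written (3.20, adjusted p = 0.543). Neutrophils against monocytes were at 0.84 (adjusted p = 0.00195), at 1.13 with DESeq2 (adjusted p = 0.111), and at −0.20 (adjusted p = 0.466) with library size alone, and without mouse 1 the fold fell under the threshold (0.51). Monocytes exceeded border macrophages by 1.92 (adjusted p = 0.0232), a call lost with DESeq2 (adjusted p = 0.166), with library size alone (adjusted p = 0.0649), with 2 markers as the minimum (adjusted p = 0.203) and without mouse 2 (1.5, adjusted p = 0.189). Neutrophils exceeded them by 2.76 (adjusted p = 8.94e-05), which library size alone took to 1.53 (adjusted p = 0.0580). *Cxcr4* was present in 37.9% of monocytes (30.7 to 45.6), 28.5% of neutrophils (23.4 to 34.0) and 0.171% of microglia. The last share was near the 0.149% of *Snap25*, and per 1000 *S100a8* UMIs there were 3.04 *Cxcr4* UMIs in microglia (2.40 to 3.81) and 0.972 in neutrophils (0.867 to 1.09).

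Within neutrophils the receptors often occurred together. Before thinning, 175 of 297 cells carried both *Cxcr2* and *Ccr1*, 91.1% of those with *Ccr1*, and 136 carried both *Cxcr2* and *Cxcr4*, 78.6% of those with *Cxcr4*. Neutrophils were also split by the secondary granule genes *Ngp*, *Camp* and *Ltf*, which are made during maturation in the marrow. The cut was chosen after the values were seen, so no test is given. In the 230 cells with at least 3 such UMIs *Cxcr2* stood at 494, 391 and 413 CPM, and in the 67 cells with fewer at 979, 1019 and 852 CPM. *Ccr1* was likewise lower in the former, at 260, 195 and 179 CPM against 512, 604 and 234 CPM. *Cxcr4* did not separate them, at 191, 139 and 208 CPM against 137, 161 and 148 CPM. *Cx3cr1* was at 25.6, 19.1 and 50.2 CPM in the cells with granule UMIs and at 273, 241 and 617 CPM in the others. *S100a8* and *S100a9* took 40.5% of the UMIs of the first subset and 18.7% of the second, and their part in these CPM values was not tested. With only the granule-positive neutrophils *Cx3cr1* was 2.04 lower than in monocytes on the log2 scale (log2 fold change −2.04, adjusted p = 5.7e-07), and *Ccr2* had 0 UMIs. The 6 cells with *Ccr2* had 0.102% of their UMIs on *S100a8* and *S100a9*, none had *Plac8*, and 33.3% had *P2ry12*. What share these cells have in the neutrophil values of *Cx3cr1* was not tested.

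**Figure D3:**
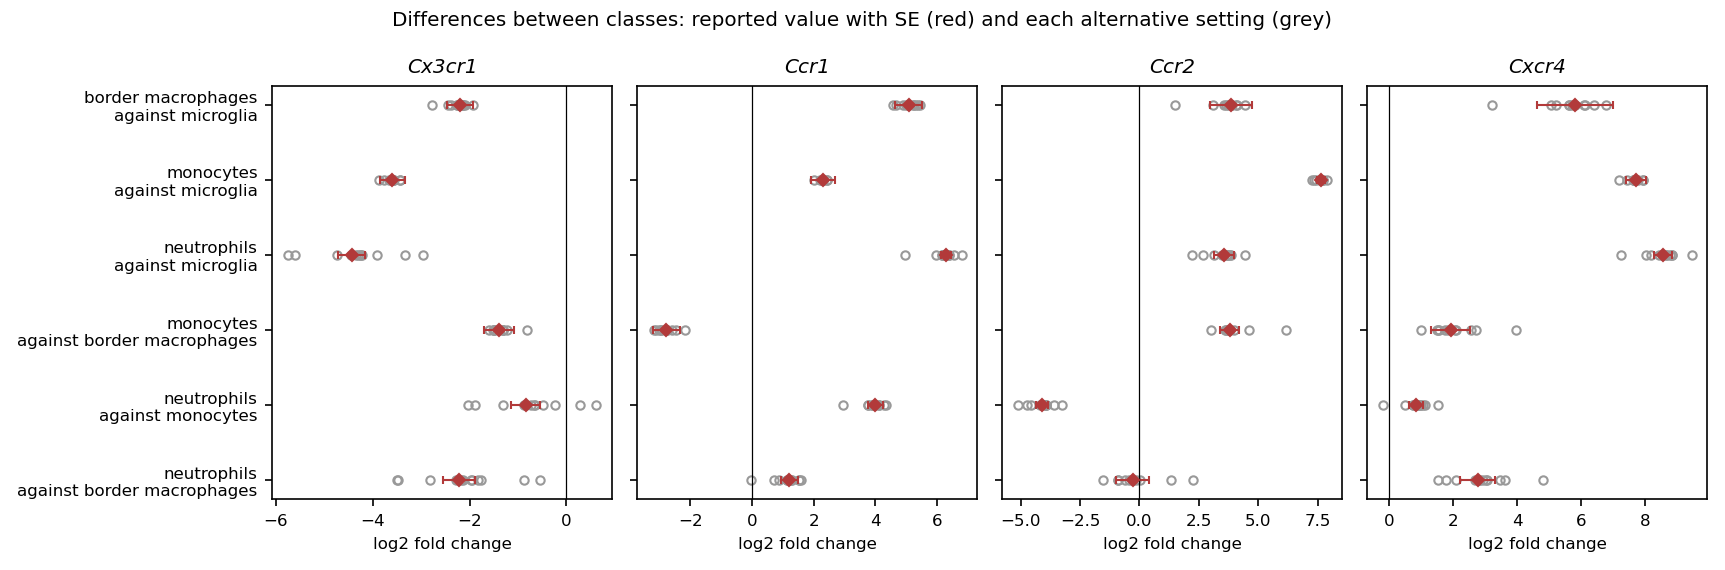
Log2 fold change (horizontal axis, a separate scale per gene) of *Cx3cr1*, *Ccr1*, *Ccr2* and *Cxcr4* in the 6 class comparisons (vertical axis). Red points with bars are the reported value and its SE (its size divided by the square root of its F statistic), and grey circles are the alternative settings. The settings crossed 0 for *Cx3cr1* and *Cxcr4* in neutrophils against monocytes and for *Ccr1* and *Ccr2* in neutrophils against border macrophages.

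*Ccrl2* was found at a low, even level in microglia. They held 11.9, 11.1 and 10.8 CPM in mice 1, 2 and 3 (11.3 ± 0.579), with 692 of the 732 positive cells at a single UMI. It was present in 2.22% of microglia (2.01 to 2.45), above the 0.149% of *Snap25*. Monocytes held 0, 11.6 and 15.7 CPM from 10 UMIs, neutrophils 2.97, 3.34 and 2.00 CPM from 5 UMIs, and border macrophages 0 UMIs, which allow up to 19.7 CPM. The ratio of CPM between microglia and neutrophils was 4.0 (95% counting interval 1.71 to 12.4). *Ccr6* was rarer still. It had 125 UMIs in 122 microglia, at 2.01, 1.59 and 1.94 CPM by mouse, and 0 UMIs in the other 3 classes. Its share was 0.325% of microglia, above the 0.149% of *Snap25*, and 119 of the 122 cells held a single UMI. The source of these UMIs was not tested. With neutrophils set at a floor of 3 UMIs, microglia were 1.08-fold higher. The 95% counting intervals overlapped, at 1.52 to 2.18 CPM in microglia and 0 to 2.08 CPM in neutrophils. A difference of microglia from any of the other 3 classes was therefore not detectable at this depth.

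Other genes of the system were read from lists. Among the further chemokine and chemoattractant receptors, *Cmklr1* passed the filter in the class sums. *Cmklr1*, the signalling receptor of chemerin, stood at 106 ± 12.9, 54.5 ± 6.31, 14.1 ± 6.90 and 2.32 ± 2.08 CPM in microglia, border macrophages, monocytes and neutrophils (SD, n = 3 mice). Against microglia it was lower in monocytes (log2 fold change −2.94, adjusted p = 4.12e-10) and neutrophils (−4.25, adjusted p = 5.76e-11) and was not called in border macrophages (−0.92, adjusted p = 0.291).

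Of the 19 ligands of the 7 receptors, 8 could be tested. In border macrophages *Ccl2*, *Ccl8*, *Ccl12* and *Ccl24* were higher than in microglia and *Ccl9* was lower, with a median over the list of 1.97 on the log2 scale against −0.37 for all genes. *Ccl12*, a ligand of *Ccr2*, differed by 3.46 (SE 0.22, adjusted p = 3.61e-16). In monocytes 4 ligands were higher than in microglia and 3 were lower (median −0.05, all genes −0.15), and in neutrophils 2 were higher and 2 lower (median −2.07, all genes −0.32). The share of all genes called was 12.1% in border macrophages, 55.9% in monocytes and 66.5% in neutrophils, against 5, 7 and 4 of the 8 ligands. *Ccl6*, a ligand of *Ccr1*, was higher in both, by 3.18 in monocytes (adjusted p = 2.63e-16) and 3.81 in neutrophils (adjusted p = 5.45e-19).

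Of 17 signalling genes that act behind chemokine receptors, 16 were tested. Neutrophils had 8 higher and 4 lower than microglia (median 0.81, all genes −0.32), monocytes 7 higher and 6 lower (0.30 and −0.15) and border macrophages 1 higher and 2 lower (−0.48 and −0.37). Of all genes, 28% were higher and 38.5% lower in neutrophils, 25.6% and 30.3% in monocytes, and 5.68% and 6.38% in border macrophages. *Rac2*, a GTPase of leukocyte motility, was 4.75 above microglia in neutrophils on the log2 scale (adjusted p = 2.45e-25) and 2.12 in monocytes (adjusted p = 2.8e-13). *Grk6*, a kinase that desensitizes chemokine receptors, was higher in neutrophils (3.20, adjusted p = 4.05e-19), monocytes (1.86, adjusted p = 5.21e-09) and border macrophages (1.88, adjusted p = 0.0174). *Rgs10*, which shortens G protein signals, was lower in neutrophils (−3.60, adjusted p = 1.61e-18) and monocytes (−2.69, adjusted p = 1.34e-15).

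The genes whose levels ran most like a receptor over the 12 sums were listed as a description, with gate markers left out and 7832 genes compared. The sums share mice and fall into 4 classes, so high correlations follow from any gene that marks the same class. For *Cx3cr1* these were *Cst3* (Pearson r = 0.98 of log2 CPM), *Dock4* (0.979), *Rrbp1* (0.973), *Mef2a* (0.970) and *Grn* (0.959). *Ccr1* ran most like *Ier3* (0.952) and *Ccr2* most like *Clec2i* (0.95). *Cxcr2* ran most like *Tnnt1* (0.982) and *Cxcr4* most like *Kcnab2* (0.982).

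The series was made to compare the V3.0 and V3.1 kits, and the receptors were compared in microglia of the 6 libraries. Of the 6 receptors that could be tested, 0 were called by edgeR, where 3.05% of 12021 genes were. *Cx3cr1* stood at 4053, 3556 and 4190 CPM with V3.0 in mice 1, 2 and 3 and at 4889, 4061 and 4557 CPM with V3.1. All 3 mice had the higher value with V3.1, while the ranges of the kits overlapped. At 0.21 (SE 0.079, adjusted p = 0.0919) the log2 fold change lay under the fold threshold, and a block by mouse left it there (0.21, adjusted p = 0.00166). It was the 1 receptor with an unadjusted p below 0.05 (0.0184), and DESeq2 called none. *Ccr2* stood at 5.30, 5.33 and 6.83 CPM with V3.0 and 4.18, 3.37 and 5.06 CPM with V3.1, lower in 3 of 3 mice (−0.38, SE 0.20, adjusted p = 0.242). The other 4 had log2 fold changes of 0.0083 (*Ccr1*), 0.13 (*Ccrl2*), 0.16 (*Cxcr2*) and 0.35 (*Ccr6*), with adjusted p-values from 0.479 to 0.987. *Cxcr4*, at 0.314 to 2.05 CPM, did not pass the filter. The share of microglia with a *Ccrl2* UMI was 1.84% ± 0.414 with V3.0 and 2.40% ± 0.299 with V3.1 (SD, n = 3) and higher in each mouse. An exact permutation test, two-sided, gave p = 0.1, the least that 3 against 3 samples can give. This test took the libraries as unpaired, although each mouse gave 1 to each kit, and its adjusted p over the 7 receptors was 0.7. Without mouse 3 of V3.0, the shallow library, no receptor was called either.

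**Figure D4:**
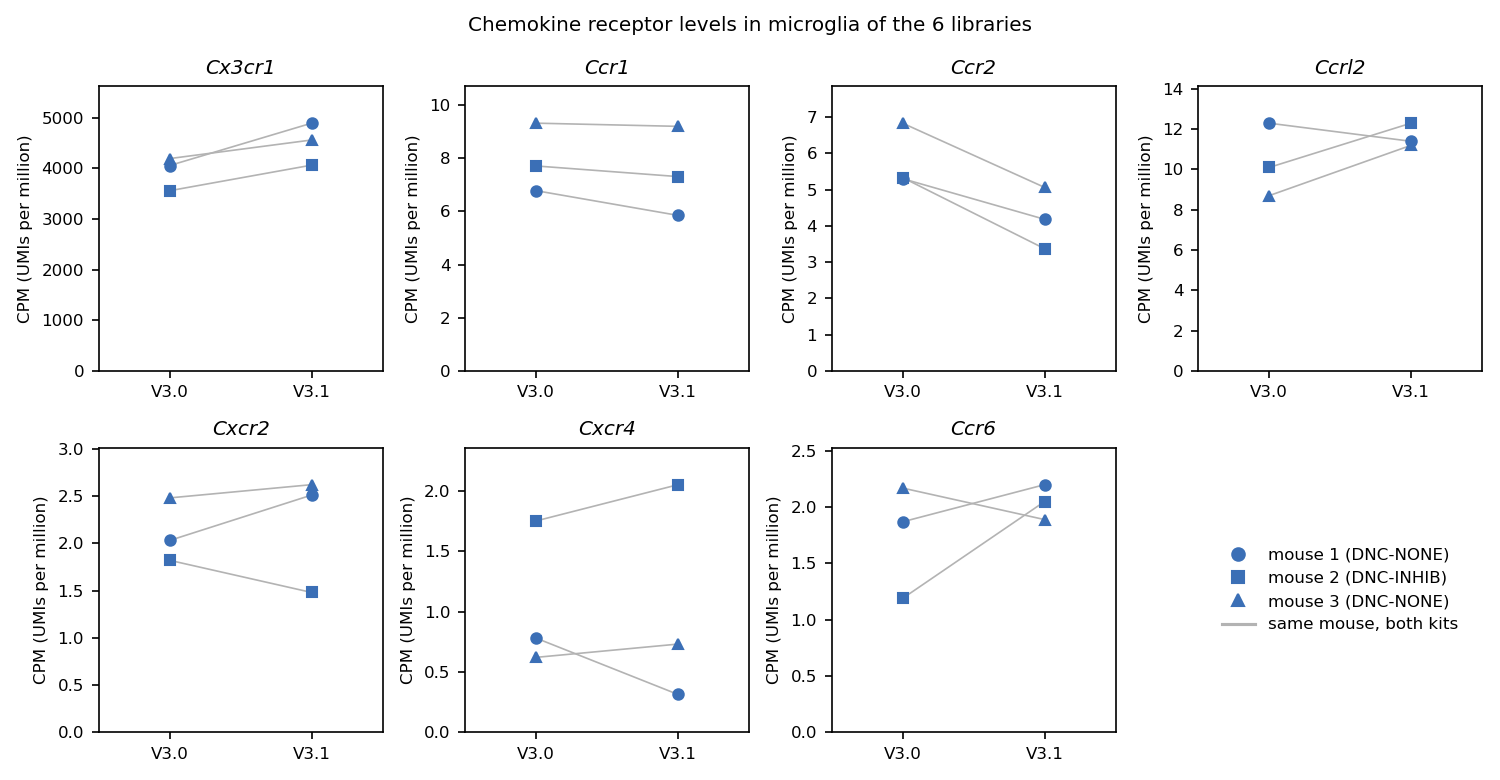
Level of each receptor in microglia (CPM, vertical axis, a separate linear scale per gene) by kit, where a line joins the V3.0 and V3.1 libraries of a mouse. *Cx3cr1* rose and *Ccr2* fell from V3.0 to V3.1 in all 3 mice without passing the test, and mouse 2 (DNC-INHIB) had the lowest *Cx3cr1* and the highest *Cxcr4* with both kits.

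The inhibitor comparison set mouse 2 against mice 1 and 3 with both libraries of a mouse summed, so the inhibitors and the differences between animals cannot be told apart. Of the 7 receptors, 0 were called by edgeR in microglia, where 0.644% of 13189 genes were (54.1% of these calls higher, and 43.7% with library size alone). *Cx3cr1* was at 3788 CPM in the DNC-INHIB mouse and at 4410 and 4497 CPM in the DNC-NONE mice (log2 fold change −0.22, SE 0.094, adjusted p = 0.544). *Cxcr4* was at 1.89 CPM against 0.581 and 0.713 CPM, from 77 UMIs in 57 microglia in all (1.56, SE 0.46, adjusted p = 0.127). These 2 receptors had unadjusted p-values below 0.05 (0.0246 and 0.00183), and DESeq2 called none. *Cxcr4* passed with all genes kept in the fit (adjusted p = 0.0195) and under the gate as first written (1.91, adjusted p = 0.0199), and its adjusted p over the alternatives otherwise ran from 0.0725 to 1.0. In mouse 2 monocytes, which carry *Cxcr4*, were also more numerous (110 against 35 and 32), and their part in the microglial value was not tested. The other 5 receptors had log2 fold changes between −0.52 (*Cxcr2*) and −0.02 (*Ccrl2*).

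Receptors were also compared between microglia in 3 gated states and the remaining microglia. The states were 76 cells with at least 3 UMIs of *Ccl3* and *Ccl4*, 430 cells with at least 3 interferon-responsive genes and 44 cells with at least 3 genes associated with microglia in disease, among them *Cst7*, *Lpl* and *Itgax*. Few cells were in more than 1 state (1, 3 and 7 for the 3 pairs). Median depth was 4206, 3610 and 4935 UMIs per cell in the states, in this order, against 3513, 3512 and 3513 in the other microglia. The states were not compared at equal depth. Of the receptors tested, 0 of 6 were called by edgeR in the *Ccl3* and *Ccl4* positive cells (2.32% of all genes), where 2 had an unadjusted p below 0.05. In the interferon-responsive cells 0 of 7 were called (2.21% of all genes, 2.1% higher), with 1 receptor at an unadjusted p below 0.05. In the cells with disease-associated markers 1 of 6 was called, lower, beside 1.91% of all genes lower and 1.81% higher (3.72% in all). The calls of all genes depended on the scaling. The share that was higher moved from 58.1% with edgeR to 85.2% with DESeq2 in the *Ccl3* and *Ccl4* positive cells and from 48.6% to 81.2% in the cells with disease-associated markers, where the median of all genes moved from −0.16 to −0.028 and from −0.25 to −0.02.

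*Cx3cr1* was lower in the cells with disease-associated markers. They held 2726, 1986 and 3546 CPM in mice 1, 2 and 3, below the 4418, 3795 and 4499 CPM of the other microglia in every mouse (log2 fold change −0.71, SE 0.15, adjusted p = 0.00346). DESeq2 placed the change at −0.57, under the fold threshold (adjusted p = 0.00767), and without mouse 3 the adjusted p was 0.141 (−0.81). In the *Ccl3* and *Ccl4* positive cells *Cx3cr1* was at 3083, 3026 and 3528 CPM against 4418, 3792 and 4501 CPM (−0.47, SE 0.11, adjusted p = 0.0127), past the p threshold and not the fold threshold. In the interferon-responsive cells it was at 4108, 3125 and 3843 CPM against 4418, 3807 and 4512 CPM (−0.16, adjusted p = 0.521, or 0.000198 in the fit blocked by mouse at the same fold). *Cx3cr1* was thus lower in all 3 mice in each state.

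*Ccrl2* was numerically higher in 2 of the 3 states in every mouse, without passing the test. In the *Ccl3* and *Ccl4* positive cells it stood at 31.4, 35.6 and 47.2 CPM against 11.8, 11.0 and 10.6 CPM in the other microglia, from 12 UMIs in 8 cells (log2 fold change 1.67, SE 0.49, adjusted p = 0.0707). In the cells with disease-associated markers it stood at 40.4, 31.2 and 43.8 CPM against 11.8, 11.0 and 10.7 CPM, from 9 UMIs in 7 cells (1.71, SE 0.58, adjusted p = 0.0997). The groups did not overlap in either, and DESeq2 called both (1.76, adjusted p = 0.00207, and 1.84, adjusted p = 0.00558), as did the gate as first written (adjusted p = 0.0134 and 0.0114). In the interferon-responsive cells it was at 19.0, 23.4 and 4.51 CPM against 11.8, 10.8 and 10.9 CPM, lower in mouse 3. *Ccr2* in interferon-responsive cells was at 3.8, 22.0 and 4.51 CPM against 4.85, 3.93 and 5.37 CPM, and 16 of its 20 UMIs came from mouse 2. It was in only 5 of these cells, 1.16% before thinning, against 1.43% of the other microglia. Its log2 fold change of 1.36 (adjusted p = 0.221) was called in the fit blocked by mouse (1.35, adjusted p = 0.0414), by DESeq2 (adjusted p = 0.0476) and with all genes kept (adjusted p = 0.0355), and was −0.27 without mouse 2.

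**Figure D5:**
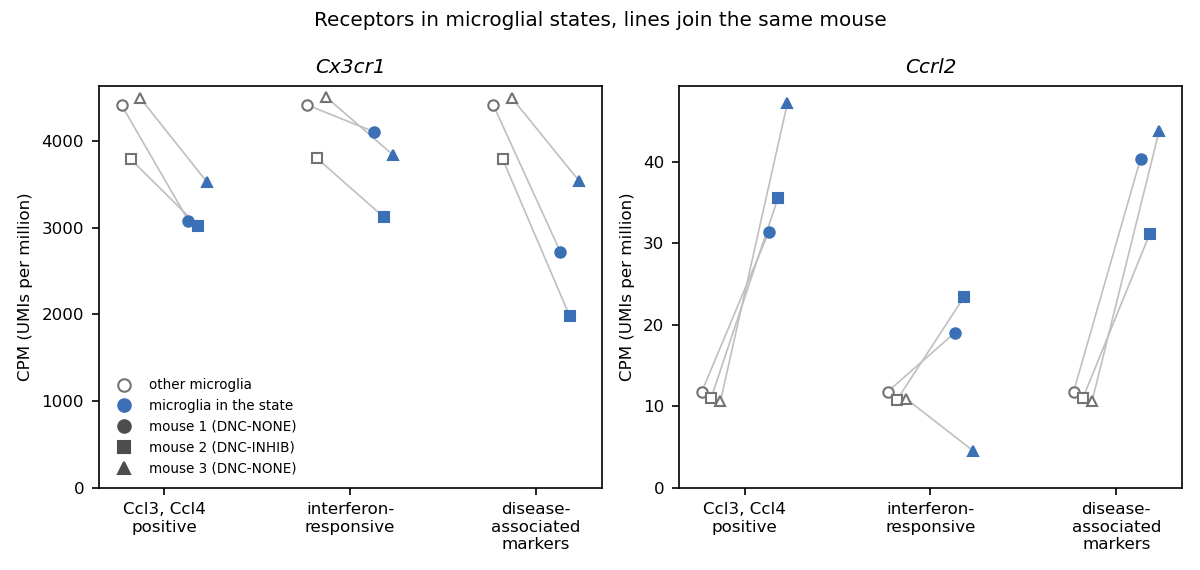
Levels (CPM, vertical axis) of *Cx3cr1* and *Ccrl2* in microglia of 3 states (filled) and in the other microglia (open), with a line joining the values of a mouse. *Cx3cr1* was lower in each state in all 3 mice, and *Ccrl2* was higher in all 3 mice in the *Ccl3* and *Ccl4* positive cells and in the cells with disease-associated markers.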

How the data were processed

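Myeloid cells of 3 mice were profiled in 6 libraries. Per the labels, the authors used bcl2fastq and Cell Ranger 5.0.0 with mm10 (GRCm38), and the deposited values are raw UMI counts per gene and called barcode, without normalization. The notes also name Seurat, and no Seurat output was used.

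The cells kept had 1000 to 4000 genes, up to 12000 UMIs and no more than 15% mitochondrial UMIs. Cells were gated by fixed marker lists without a chemokine receptor. As first written, a cell needed 3 markers of a class and 75% of the marker UMIs of its candidate classes. That gate put most border macrophages with microglia, so after marker values, but not receptor values, were seen, 2 microglial markers that border macrophages shared were left out of it and microglia had to show at least 5 of the 8 other markers, and other classes fewer. Remaining conflicts were set aside as mixed, and no doublet caller was run. State genes and lists were taken by name, and some of their genes are not reported here.

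UMIs were summed per library (kits) or per mouse (inhibitors, classes, states) and tested with edgeR 4.0.16 (TMM, filterByExpr, quasi-likelihood F-test, Benjamini-Hochberg adjustment over all genes tested). A fold from the fit is given only where each group had at least 5 UMIs. Otherwise counting intervals (95%, exact) or a floor of 3 UMIs over the class were used. The inhibitor fit takes the spread of the single DNC-INHIB mouse from the other 2. Shares were taken on cells drawn down to 2000 UMIs, with 740 microglia, 3 monocytes and 2 neutrophils too shallow for it. The fits were tested on simulated data.

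Both libraries of a mouse come from the same animal, so mouse numbers pair the samples, and the residuals of the 2 libraries correlated at 0.367, 0.48 and 0.185 over 500 genes. Alternatives were DESeq2 1.42.0, library size alone, no filter, at least 500 genes with no upper limit, a mouse block, each mouse left out, 90% of marker UMIs and 2 markers. The gate as first written and neutrophils with at least 3 granule UMIs were added after seeing the data. The genes named were the 7 receptors, the listed receptors that passed the filter, members of the ligand and signalling lists, and the 5 genes most correlated with a receptor. The members and lists were chosen with earlier results of these data known. Gene positions are from GENCODE and promoters from RefSeq, matched by symbol for all 7 receptors. Python 3.11.15 and R 4.3.3 were used.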

Additional observations from a re-analysis of the deposited data

Results flagged for a closer look

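In 23 groups of 6 libraries the gap between the most extreme library and the next was set against the range of the group. For independent, normally distributed values chance meets this rule in about 1 group in 20. Sparse counts need not follow that rate, and a group with UMIs in 1 library alone always meets the rule. The rule picked out 6 values, 4 of them in the shallow V3.0 library of mouse 3. There *Cx3cr1* in 9 monocytes stood at 145 CPM, below the 261 to 320 CPM of the other 5 libraries, *Ccr2* in 19 neutrophils at 137 CPM from 14 UMIs in 1 cell, against 0 to 27.7 CPM elsewhere, and *Ccrl2* in neutrophils at 0.0 CPM. In the same library *Cxcr4* in border macrophages reached 507 CPM from 4 UMIs in 1 of 2 cells. In the V3.0 library of mouse 2 *Cxcr2* in border macrophages was at 16.9 CPM, from 1 UMI, and *Ccr6* in microglia at 1.19 CPM, below the 1.87 to 2.20 CPM of the other libraries.

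Cells outside the 4 classes also carried receptors. Among the 34 cells with lymphocyte markers *Ccr2* was in 38.2% (95% exact interval 22.2 to 56.4), *Cxcr4* in 26.5% and *Cx3cr1* in 23.5% before thinning, above the 1.42% of *Ccr2* and 0.302% of *Cxcr4* in microglia. Among the 112 cells in no class *Cx3cr1* was in 83.9%, *Cxcr4* in 33.9% and *Ccr2* in 31.2%. No comparison used these cells.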

How the results depend on the processing

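Under the alternatives 432 log2 fold changes of the receptors kept their direction and their side of the thresholds, 23 changed sign, 18 were no longer called and 10 became called. Values that changed sign were, for V3.1 against V3.0, *Ccr1* at −0.0085 (DESeq2), −0.0093 (library size), −0.16 (from 500 genes, no upper limit), −0.11 (gate as first written), −0.09 (replicate block) and −0.12 to 0.077 (with a sample left out), and *Cxcr2* at −0.08 (gate as first written). For DNC-INHIB they were *Ccr1* at 0.071 (V3.0 alone), *Ccr2* at 0.11 (gate as first written), *Ccrl2* at 0.022 (from 500 genes, no upper limit), 0.034 (gate as first written) and 0.13 (V3.1 alone), and *Ccr6* at 0.028 (V3.1 alone). Between classes they were *Cx3cr1* in neutrophils against monocytes at 0.62 (from 500 genes, no upper limit) and 0.27 (gate as first written), *Cxcr4* there at −0.20 (library size), and in neutrophils against border macrophages *Ccr1* at −0.02 (library size) and *Ccr2* at 0.0062 (no filter), 1.33 (2 markers) and −0.92 to 2.24 (with a mouse left out, 2.24 without mouse 2). In states they were, without mouse 2, *Ccr1* at −0.80 (*Ccl3* and *Ccl4* positive) and 0.30 (interferon-responsive) and *Ccr2* at −0.27 (interferon-responsive, 1.76 without mouse 1). The cause was not tested.

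Counts of called genes moved by over 1.5 times as follows. For the kits 367 became 142 to 402 with a mouse left out. For DNC-INHIB 85 became 15 (DESeq2), 128 (no filter), 41 (from 500 genes, no upper limit) and 1 (V3.0 alone, with fewer libraries). With the gate as first written border macrophages against microglia went from 945 to 536 and neutrophils against border macrophages from 2569 to 1576. With a mouse left out the counts ran from 551 to 765 (border macrophages against microglia, 945), 774 to 1036 (monocytes against border macrophages, 1270), 136 to 231 (*Ccl3* and *Ccl4* positive, 267) and 78 to 293 (disease-associated markers, 428), with fewer samples in each. The share of neutrophils with *Cx3cr1* was 10.2% at 2000 UMIs, 6.73% at 1000 and 17.8% not thinned. Pairing by mouse (the replicate block) changed the call of *Ccr2* in interferon-responsive cells (1.35, adjusted p = 0.0414) and no other call of the 7 receptors. Precision was limited by 36 border macrophages and by low UMI counts of *Cxcr4*, *Ccr6* and *Ccrl2*.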

Other observations

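*Ccr1* UMIs in microglia were concentrated in few cells. Of 523 UMIs, 119 lay in 17 cells with at least 5 each, up to 13 in a cell. All 17 carried *P2ry12* and *Cx3cr1*, and their median depth was 3993 UMIs against 3514.5 in all microglia. *Pf4*, *Ms4a7*, *Retnlg*, *Ccr2* and *Cxcr2* were seen in 0 of the 17, *Mrc1* in 2, and *S100a8* in 70.6%, against 69.3% of all microglia. In contrast, of the 142 microglia with *Cxcr2*, 139 held a single UMI, and of the 122 with *Ccr6*, 119 did.

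Admitting barcodes from 500 genes and lifting the upper limits together raised the neutrophils from 297 to 831 and the microglia from 18888 to 22997, so most barcodes with neutrophil markers lay outside the limits used. In this wider set *Cxcr2* in neutrophils was at 604 CPM (507 in the set used), *Ccr1* at 278 CPM (247), *Cxcr4* at 186 CPM (174) and *Cx3cr1* at 261 CPM (77.9). *Ccr2* in monocytes was at 817 CPM, against 798 CPM.

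Of the 181 cells set aside as mixed, 95.6% carried *Cx3cr1*, 24.3% *Cxcr4*, 23.8% *Ccr1* and 21.5% *Cxcr2*.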
